A study of Homo sapiens with 9 samples.

Results

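Both ponatinib-resistant derivatives of the lung adenocarcinoma line LC-2/ad, PR1 and PR2, were set together against the parental cells to describe what the 2 derivatives had in common. For each gene, the mean of the PR1 and PR2 group means was compared with the parental mean, with the derivatives weighted equally. All 9 libraries of the series entered the comparison, 6 from the derivatives and 3 from parental cells. Of 24069 rows in the expression table, 12011 reached 1 FPKM (a fragment count divided by transcript length and by library size) in at least 3 libraries and were tested. A shared change had to meet 3 conditions. The limma adjusted p of the pooled difference was under 0.05, all 6 derivative libraries lay beyond the 3 parental ones on the same side, and each derivative differed from the parental mean by 2-fold or more in that direction. These conditions were met by 381 rows, 179 higher and 202 lower in the derivatives.

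LC-2/ad is an established human line whose cells carry a CCDC6-RET fusion, and ponatinib inhibits several kinases, RET among them. Libraries A, B and C of PR1 and of PR2 came from cells kept with 200 nM of the drug. For the 3 parental libraries no drug is named, so resistance and the presence of ponatinib cannot be told apart. PR1 and PR2 are the 2 derivative lines measured, and a gene that both changed describes these lines. The letters are not stated to be separate cultures, and the errors and p-values cover library-to-library spread alone, part or all of which may be technical. In bulk RNA, fewer cells expressing a gene and less of its RNA per cell cannot be told apart.

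RET is a receptor tyrosine kinase, and its fusion to CCDC6 gives a kinase that signals without a ligand, in part through the MAPK cascade. Lung adenocarcinoma cells often keep features of the airway or alveolar epithelium they arise from, such as surfactant proteins, secreted defence proteins and retinoid enzymes. YAP, a co-activator that binds DNA through TEAD factors, switches on genes for adhesion, matrix and the actin cytoskeleton, and AXL, a receptor tyrosine kinase activated by GAS6, is among its known targets.

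Libraries of the same group correlated across genes at 0.961 to 0.985 and parental libraries correlated with derivative libraries at 0.883 to 0.949. PR1 libraries correlated with PR2 libraries at 0.909 to 0.944, so the derivatives were no closer to each other than some were to parental cells. No 2 libraries were identical. On the first principal component, which held 41.9% of the variance, parental A lay at -21.9, parental B at -47.0 and parental C at -42.1, so parental A lay nearer to the derivatives. PR1 libraries lay between, at 3.99, -11.5 and -6.65, and PR2 libraries at 48.0, 37.0 and 40.2. On the second component (25.8%), PR1 libraries lay at 32.2 to 38.6. There PR2 libraries lay at -20.8 to -9.13, near the parental ones at -25.3 to -13.0. All 13 lung adenocarcinoma markers reached 1 FPKM in at least 3 libraries, and their summed level was 6908 to 8261 FPKM in parental cells, 6354 to 8077 in PR1 and 7038 to 9391 in PR2. That sum rests on abundant genes such as KRT7, which reached 3548 FPKM, and does not show single markers. Of the 13, 5 changed lower (38.5%, where 8.96% of all rows did) and none higher. SFTPB and CEACAM5 were shared falls. With quantile normalization 3 markers changed lower and 3 higher. Of 12 fibroblast markers 2 reached that level, of 10 blood cell markers 1 (CD14) and of 14 neuroendocrine markers 3. DPT, CHGA, INSM1 and GRP were listed at 0 in all libraries. Fibroblast markers summed to 5.99 to 12.3 FPKM in parental cells, 6.44 to 9.14 in PR1 and 10.2 to 14.5 in PR2, and blood cell markers to 3.73 to 9.49, 1.25 to 1.96 and 0.827 to 1.38 FPKM. Neuroendocrine markers summed to 9.68 to 12.9 FPKM in parental cells, 4.54 to 5.94 in PR1 and 13.2 to 22.7 in PR2.

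By the smaller of the 2 derivatives' differences, CRIP1, AXL, FSCN1 and BMP4 led the rises, and BPIFB1, CYP2B7P, CAPN13 and BPIFA1 led the falls. Of the rows tested, 2397 changed at a limma adjusted p under 0.05 (20.0%), 1321 of them higher (11.0%) and 1076 lower (8.96%). The changed rows numbered 1326 without parental B, 1516 without parental C and 1040 with the derivatives fitted as 1 group, and the shared changes 336, 365 and 365. All 6 derivative libraries lay on the same side of the 3 parental ones for 1873 rows (15.6%), 1060 higher (8.83%) and 813 lower (6.77%). Both conditions held for 1560 rows. The shared changes made up 3.17% of the rows tested, the shared rises 1.49% and the shared falls 1.68%. Scaling each library to its median gave 1073 changed rows higher and 1352 lower, a higher share of 44.2% in place of 55.1%, whereas the shared changes came to 378, of which 351 were among the 381.

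**Figure D1:**
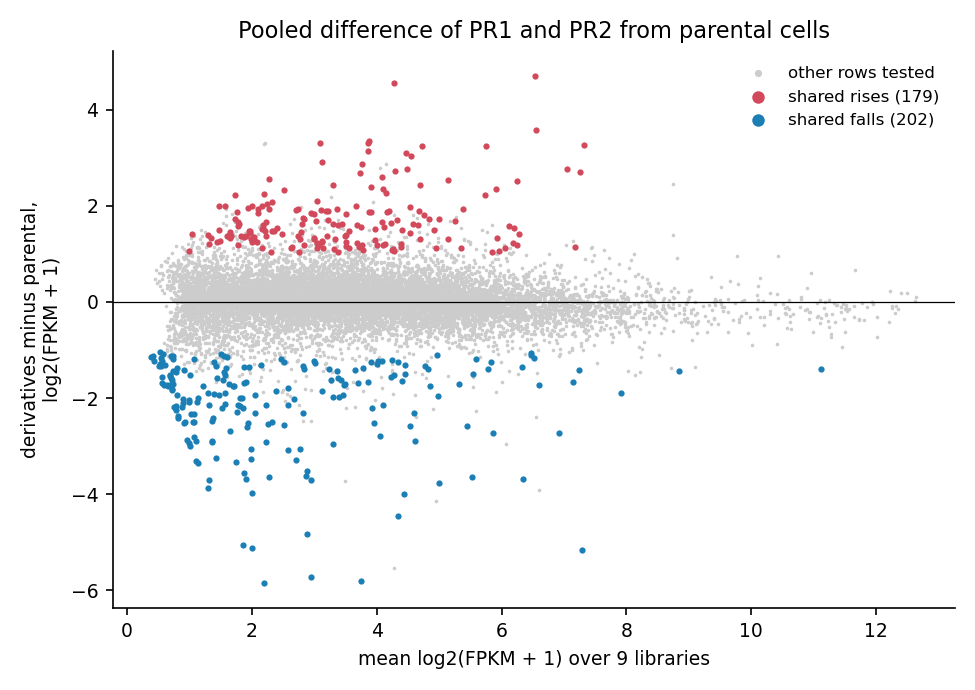
Pooled log2(FPKM + 1) difference of the derivatives from parental cells (vertical axis) against the mean log2(FPKM + 1) over the 9 libraries (horizontal axis), with 1 point for each of the 12011 rows tested. Red points are the 179 shared rises, blue points the 202 shared falls and grey points all other rows. The falls reach about as far as a log2 difference of -5.84 (BPIFB1) and the rises as far as 4.70 (CRIP1).

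A pooled change of 2-fold or more was called for 758 rows, 389 higher and 369 lower, and 377 of these were not shared. In 182 of the 377 a derivative library fell within or beyond the parental range, and in 195 the libraries stood apart but 1 derivative moved by less than 2-fold. Of the 381 shared changes, 359 were also called in each derivative alone. The smaller of the 2 derivatives' differences had a median of 1.31 on the log2 scale for the rises and -1.52 for the falls. It reached 2 in size for 25 rises and 60 falls. The gap between the nearest parental and derivative libraries was 2-fold or more for 71 rises and 119 falls. Just inside the 2-fold limit lay ECE2 (a log2 difference of -1.001 in PR1) and LAMA5 (1.003 in PR2), and just outside it GLCCI1 (0.99 in PR1) and F2R (0.99 in PR2).

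AXL and CRIP1 led the rises. CRIP1, a small LIM-domain protein, was measured at 14.3, 9.84 and 6.15 FPKM in parental cells, 647, 418 and 277 FPKM in PR1 and 175, 185 and 175 FPKM in PR2, with libraries in the order A, B and C here and below. Its pooled log2 difference was 4.70 ± 0.28 (SE; limma adjusted p = 4.8e-06), and the lowest derivative library was 12.3 times the highest parental one. PR1 libraries were the highest, PR2 libraries were intermediate, and none overlapped the parental range. AXL stood at 3.36, 0.748 and 0.734 FPKM in parental cells, 53.8, 34.7 and 27.9 FPKM in PR1 and 106, 68.1 and 70.5 FPKM in PR2, a pooled log2 difference of 4.56 ± 0.32 (limma adjusted p = 1.5e-05). Parental A held more AXL than parental B and C but stayed 8.31-fold under the lowest derivative library. GAS6, the secreted ligand of AXL, was listed at 3.99, 2.01 and 2.07 FPKM in parental cells, 19.8, 17.3 and 8.92 FPKM in PR1 and 28.9, 61.6 and 46.7 FPKM in PR2 and its log2 difference was 2.88 ± 0.30 (limma adjusted p = 0.00015). GAS6 was highest in PR2, and its libraries did not overlap between parental cells and derivatives.

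FSCN1 encodes fascin, which bundles actin filaments. It was measured at 21.7, 18.2 and 12.4 FPKM in parental cells, 255, 162 and 143 FPKM in PR1 and 231, 305 and 231 FPKM in PR2, with a log2 difference of 3.58 ± 0.22 (limma adjusted p = 6.6e-06). BMP4 is a secreted ligand of the TGF-beta superfamily. Its libraries read 2.50, 1.89 and 2.06 FPKM in parental cells, 40.5, 34.3 and 29.1 FPKM in PR1 and 26.5, 30.97 and 23.1 FPKM in PR2, and its log2 difference was 3.32 ± 0.15 (limma adjusted p = 7.5e-07). MSLN, the surface glycoprotein mesothelin, stood at 35.8, 34.2 and 37.1 FPKM in parental cells, 390.4, 278 and 219 FPKM in PR1 and 182, 269 and 205 FPKM in PR2, with a log2 difference of 2.77 ± 0.19 (limma adjusted p = 1.4e-05). In BMP4 and MSLN the 3 parental libraries lay close together and all derivative libraries lay several-fold above them. GNG11, a G protein gamma subunit, rose by 3.36 ± 0.23 on the log2 scale, and EDIL3, a secreted integrin-binding protein, by 3.25 ± 0.28 (limma adjusted p = 1.3e-05 and 5.2e-05). The membrane-skeleton gene EPB41L2 rose by 3.30 ± 0.32 and TNNC1, a troponin C, by 2.68 ± 0.29 (limma adjusted p = 0.00010 and 0.00018). Parental A held the highest parental value of EDIL3, EPB41L2 and TNNC1, at 10.2, 1.89 and 5.30 FPKM.

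**Figure D2:**
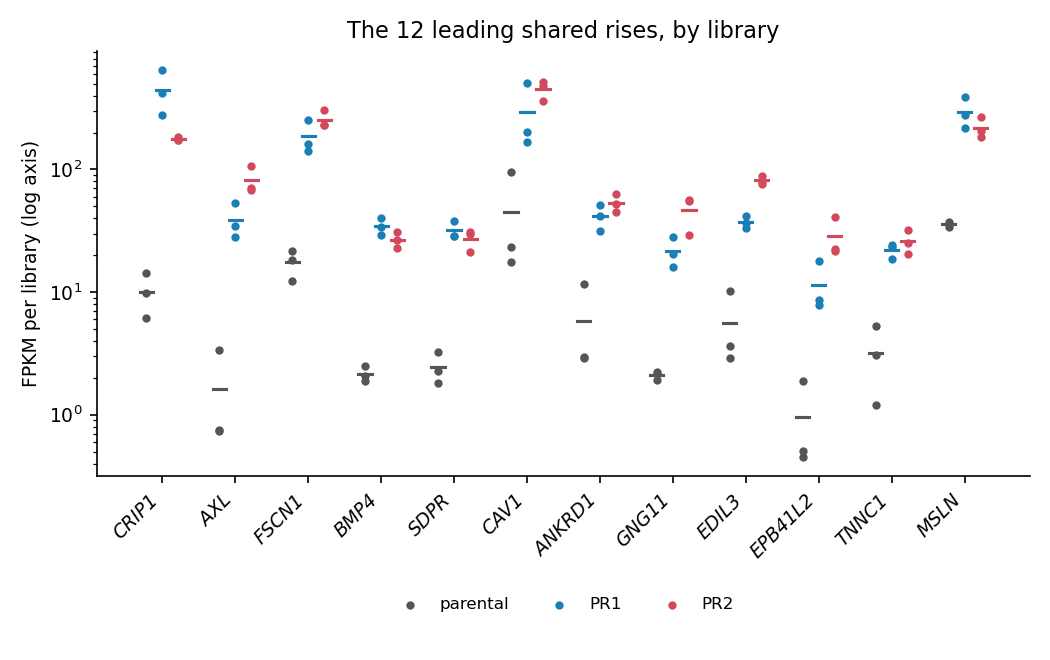
FPKM in each library (log axis) for the 12 leading shared rises, ordered by the smaller of the 2 derivatives' differences, with 1 point per library, colours for parental, PR1 and PR2 cells and a short bar at each group mean (n = 3). All 6 derivative points lie above the 3 parental points for each gene, and the gap is narrowest for CAV1 (1.75-fold).

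Caveolae are small pits of the plasma membrane built from caveolins and cavins. The caveolin gene CAV1 was measured at 95.1, 23.4 and 17.5 FPKM in parental cells, 508, 201 and 166 FPKM in PR1 and 360.3, 476 and 520.5 FPKM in PR2, a log2 difference of 3.27 ± 0.50 (limma adjusted p = 0.0017). Parental A held far more CAV1 than parental B and C, and without that library the log2 difference was 3.999. SDPR, the gene of cavin 2, stood at 3.23, 1.82 and 2.28 FPKM in parental cells, 28.8, 38.3 and 28.7 FPKM in PR1 and 21.2, 29.8 and 30.8 FPKM in PR2 and differed by 3.15 ± 0.18 on the log2 scale (limma adjusted p = 4.0e-06). ANKRD1, an ankyrin-repeat protein and a known YAP target, was measured at 11.7, 2.88 and 2.93 FPKM in parental cells, 51.04, 41.8 and 31.7 FPKM in PR1 and 62.6, 45.1 and 52.1 FPKM in PR2, a log2 difference of 3.03 ± 0.35 (limma adjusted p = 0.00031). SDPR levels in the derivatives lay in a narrow band, and ANKRD1 in parental A lay between the other parental libraries and the derivatives.

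The sequences before the start of ANKRD1, a member of the YAP and TEAD list, and of SDPR, a member of the caveolae list, are shown because they are the leading rises whose matched promoter holds the letters that TEAD factors bind. They were chosen for that match. The matched promoters of AXL, CRIP1, BMP4, CAV1, GNG11, EDIL3 and EPB41L2 held none. Each run gives the 250 bases upstream of the gene start in RefSeq (GRCh38.p14), 5′ to 3′ on the strand of the gene, with GGAATG in capitals. The coordinates are chr10:90921088-90921337 on the minus strand for ANKRD1 and chr2:191847089-191847338 on the minus strand for SDPR, listed in RefSeq under its current symbol CAVIN2.
ANKRD1: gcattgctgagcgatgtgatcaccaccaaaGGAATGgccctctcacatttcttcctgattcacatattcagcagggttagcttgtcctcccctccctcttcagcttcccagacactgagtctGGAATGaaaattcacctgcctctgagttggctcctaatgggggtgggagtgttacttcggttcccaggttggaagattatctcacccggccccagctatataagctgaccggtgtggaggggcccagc
SDPR: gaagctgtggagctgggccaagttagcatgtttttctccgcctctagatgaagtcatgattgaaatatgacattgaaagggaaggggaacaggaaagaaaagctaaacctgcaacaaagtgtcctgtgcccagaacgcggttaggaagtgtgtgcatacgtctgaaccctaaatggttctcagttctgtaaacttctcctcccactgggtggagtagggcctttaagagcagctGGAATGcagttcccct
ANKRD1 has 2 matches, which begin 220 and 128 bases before the start, and SDPR has 1, which begins 16 bases before it. Over 9087 single-gene rows matched to a RefSeq promoter of this length, 9.03% held GGAATG on either strand. The share was 11.9% of 134 matched shared rises and 10.1% of 139 matched shared falls. A match describes letters only and is neither a bound site nor a cause.

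Among YAP and TEAD targets, 26 were tested and 7 were shared rises (26.9%, where 1.49% of all rows were), with 1 shared fall. Members of this and the other lists were chosen with earlier results of these data known, so list shares are descriptions without a test. The YAP and TEAD list held 18 changed genes higher and 2 lower, and its median log2 difference was 0.94, against 0.03 over all rows tested. The shared rises were AXL, ANKRD1, CYR61, CRIM1, PTPN14, AJUBA and MYOF, and the shared fall was FOXF2, a forkhead factor. CYR61, a secreted matrix-associated protein, was measured at 35.8, 11.4 and 28.02 FPKM in parental cells, 116, 104 and 171 FPKM in PR1 and 105, 127 and 222 FPKM in PR2, a log2 difference of 2.53 ± 0.35 (limma adjusted p = 0.00096). PTPN14, a phosphatase that binds YAP, rose by 1.48 ± 0.16, and the transmembrane protein CRIM1 by 1.88 ± 0.17 (limma adjusted p = 0.00021 and 7.3e-05). CTGF, another well-known YAP target, did not pass. It was measured at 29.5, 4.68 and 27.4 FPKM in parental cells, 88.9, 69.95 and 234 FPKM in PR1 and 6.80, 13.9 and 35.1 FPKM in PR2, a log2 difference of 1.33 ± 0.63 (limma adjusted p = 0.18), so it was high in PR1 and within the parental range in 2 of 3 PR2 libraries. Without parental B its difference was 0.54. With the derivatives fitted as 1 group, 12 members of the list were called higher instead of 18, and the same number of shared rises, 7, was counted.

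Genes for integrins and laminins, the receptors and the sheet proteins that hold epithelial cells to the basement membrane, held 7 shared rises and 1 shared fall among 25 tested (28% and 4%). Their median log2 difference was 0.45, and 11 changed higher and 2 lower. The laminin chain gene LAMA3 was measured at 8.07, 4.03 and 4.61 FPKM in parental cells, 27.3, 11.5 and 14.03 FPKM in PR1 and 34.8, 25.9 and 29.4 FPKM in PR2, and LAMB3, another laminin chain gene, at 45.2, 22.95 and 31.9 FPKM in parental cells, 110.4, 79.2 and 83.2 FPKM in PR1 and 109.8, 106 and 111 FPKM in PR2. The log2 differences were 1.87 ± 0.27 and 1.59 ± 0.20 (limma adjusted p = 0.0012 and 0.00051), and both chains stood clear of the parental libraries. LAMA5, LAMC1, ITGA6 and COL17A1 were also shared rises, with log2 differences of 1.12 ± 0.16, 1.31 ± 0.19, 1.62 ± 0.36 and 1.87 ± 0.29. The call for ITGA6, which encodes an integrin chain that binds laminin, was lost without parental B or parental C (limma adjusted p = 0.066 and 0.055). ITGB4, its partner in hemidesmosomes, had a pooled log2 difference of 0.00 ± 0.17 (limma adjusted p = 0.99), with -0.52 in PR1 and 0.51 in PR2. The shared fall was ITGB3, an integrin beta chain, at -2.55 ± 0.46 (limma adjusted p = 0.0038).

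LIM-domain proteins, many of which sit at actin fibres and adhesions, had 5 shared rises and no shared fall among 27 tested (18.5%), a median of 0.43, and 9 members changed higher. The rises were CRIP1, CRIP2, PDLIM2, AJUBA and CSRP1. CRIP2, a close relative of CRIP1, stood at 4.64 ± 1.20 FPKM in parental cells, 64.8 ± 15 in PR1 and 20.3 ± 4.15 in PR2 (SD, n = 3 per group) and rose by 2.73 ± 0.20 (limma adjusted p = 2.1e-05). PDLIM2 rose by 1.60 ± 0.35 (limma adjusted p = 0.010), a call lost without parental B (adjusted p = 0.060). Without parental B the changed members of the list numbered 5. Without the 3 A libraries they numbered 15. Of 37 actin bundling and contractile genes, 14 changed higher (37.8%) and 1 lower (2.70%), where 11.0% and 8.96% of all rows did. FSCN1, FLNC and PLS3 were the 3 shared rises (8.11%). FLNC encodes a filamin that crosslinks actin and PLS3 encodes plastin 3, and their log2 differences were 2.91 ± 0.48 and 1.14 ± 0.21 (limma adjusted p = 0.0024 and 0.0046). FLNC did not pass in PR1 alone (limma adjusted p = 0.058). Without parental B or without parental C, 7 actin genes were called higher in place of 14.

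Other matrix and signalling lists held fewer shared rises. Of 7 caveolae genes 5 changed higher and 2 were shared rises (28.6%), CAV1 and SDPR, and without parental B or C the members called higher numbered 3 and 2. Among 20 TGF-beta targets 12 changed higher and none lower, with a median of 1.01, but 2 were shared rises (10%), BMP4 and the type IV collagen gene COL4A2. COL4A2 differed by 2.60 ± 0.25 (limma adjusted p = 0.00011), with 1.72 in PR1 and 3.49 in PR2. The changed TGF-beta targets numbered 7 without parental B, 8 without parental C and 4 with the derivatives as 1 group. Among 14 mesenchymal markers 8 changed higher, and THBS1, a matrix glycoprotein, was the shared rise. It was measured at 38.9, 4.76 and 6.71 FPKM in parental cells, 63.8, 46.8 and 62.8 FPKM in PR1 and 244, 187 and 246 FPKM in PR2, a log2 difference of 3.24 ± 0.50 (limma adjusted p = 0.0016) that became 4.10 without parental A. FN1, the matrix protein fibronectin, and VIM rose in the pooled comparison but were not shared. The FN1 log2 difference was 2.78 ± 0.46 (limma adjusted p = 0.0024) and 3.42 without parental A. VIM, the filament protein vimentin, was measured at 5.12, 1.93 and 1.64 FPKM in parental cells, 62.3, 22.2 and 14 FPKM in PR1 and 2.05, 4.24 and 2.21 FPKM in PR2, so it was high in PR1 and at the parental level in PR2. Without parental B or parental C, 4 mesenchymal markers were called higher. VIM lost its call without parental B, parental C, PR2 B or PR2 C (limma adjusted p = 0.053 to 0.14), without a filter (0.074) and with the derivatives as 1 group (0.35). Without parental A the shared rises numbered 5 among mesenchymal markers, 4 among TGF-beta targets and 6 among actin genes.

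Receptors, ligands and MAPK output genes were compared next, since the line carries a receptor kinase fusion and the drug inhibits that kinase. Of 26 receptor tyrosine kinase genes, 7 changed higher (26.9%) and 3 lower (11.5%), where 11.0% and 8.96% of all rows did. AXL was the shared rise and INSR, the insulin receptor, the shared fall (-1.24 ± 0.20; limma adjusted p = 0.0020). Each was 3.85% of the list, where 1.49% of all rows were shared rises and 1.68% shared falls. EGFR stood at 8.27 ± 1.34 FPKM in parental cells, 15.7 ± 1.28 in PR1 and 23.4 ± 4.35 in PR2 (SD, n = 3 per group), a log2 difference of 1.12 ± 0.15 (limma adjusted p = 0.00074). Its derivative libraries all lay above the parental ones, but PR1 differed by 0.86, under 2-fold. RET was measured at 13.1, 14.8 and 15.7 FPKM in parental cells, 17.1, 15.9 and 16.8 FPKM in PR1 and 8.89, 8.95 and 7.66 FPKM in PR2, with a pooled log2 difference of -0.27 ± 0.12 (limma adjusted p = 0.14). Its PR1 libraries lay above and its PR2 libraries below those of parental cells. The log2 difference was 0.18 ± 0.13 in PR1, which did not pass (limma adjusted p = 0.42). In PR2 it was -0.71 ± 0.13, which passed (limma adjusted p = 0.0040). CCDC6, the fusion partner, differed by -0.04 ± 0.16 (limma adjusted p = 0.90), and gene-level values cannot separate fusion from unfused transcripts.

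Of 24 receptor ligands, 9 changed higher (37.5%) and 1 lower (4.17%), where 11.0% and 8.96% of all rows did. GAS6 and VEGFC were shared rises (8.33%). VEGFC, a growth factor for lymphatic vessels, rose by 1.39 ± 0.28 (limma adjusted p = 0.0076). Without parental B, 4 ligands were called higher in place of 9. Among 20 genes that report MAPK signalling, 6 changed lower (30%) and 1 higher (5%), with a median of -0.51. DUSP6, a phosphatase induced by ERK that switches it off, was the shared fall. It was measured at 104, 148 and 191 FPKM in parental cells, 44.5, 62.5 and 82.7 FPKM in PR1 and 6.29, 5.94 and 14.4 FPKM in PR2, a log2 difference of -2.59 ± 0.30 (limma adjusted p = 0.00031), with the PR2 libraries well below those of PR1. The ERK-induced regulators SPRY4 and ETV4 had pooled log2 differences of -1.81 and -1.91 but differences of -0.61 and -0.63 in PR1, so they were not shared (limma adjusted p = 5.1e-05 and 0.0011). FOSL1, an AP-1 subunit induced by ERK, was the shared rise at 1.72 ± 0.46 (limma adjusted p = 0.025), and that call was lost without parental B or parental C (adjusted p = 0.12 and 0.075). FOSL1 did not pass in PR1 alone (limma adjusted p = 0.073). With the derivatives fitted as 1 group, no MAPK output gene was called lower.

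BPIFB1 and BPIFA1 encode secreted proteins of the airway lining. BPIFB1 was measured at 20.2, 125 and 116 FPKM in parental cells, 0.0644, 0.401 and 0.771 FPKM in PR1 and 0, 0.0218 and 0.0190 FPKM in PR2, and BPIFA1 at 44.8, 252 and 108 FPKM in parental cells, 0.621, 3.53 and 8.27 FPKM in PR1 and 0, 0.0357 and 0.0632 FPKM in PR2. Their log2 differences were -5.84 ± 0.48 and -5.72 ± 0.57 (limma adjusted p = 4.0e-05 and 0.00011), and without parental A, the lowest parental library for both, they were -6.68 and -6.34. All derivative libraries lay far below the parental ones, with the PR2 libraries lower than those of PR1. SFTPB, a surfactant protein of alveolar cells, was measured at 54.3, 144 and 40.6 FPKM in parental cells, 3.46, 6.01 and 4.997 FPKM in PR1 and 0.0207, 0.0352 and 0.0204 FPKM in PR2, a log2 difference of -4.84 ± 0.33 (limma adjusted p = 1.3e-05). CYP2B7P, a pseudogene of the cytochrome P450 2B family that can share reads with its relatives, stood at 204 ± 75.2 FPKM in parental cells, 5.88 ± 4.45 in PR1 and 1.40 ± 1.12 in PR2 (SD, n = 3 per group), a log2 difference of -5.81 ± 0.50 (limma adjusted p = 5.1e-05).

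The 250 bases before the start of BPIFA1 are shown because BPIFA1 is the one leading fall whose matched promoter holds the letters searched here, and it was chosen for that match. Airway and alveolar cells use the factor NKX2-1, whose binding letters are CTCAAG. The matched promoters of BPIFB1 and SFTPB held none. In RefSeq (GRCh38.p14) the bases of BPIFA1 lie at chr20:33235746-33235995 on the plus strand, given 5′ to 3′, and the capitals mark the match, which reads CTTGAG here because it lies on the opposite strand.
BPIFA1: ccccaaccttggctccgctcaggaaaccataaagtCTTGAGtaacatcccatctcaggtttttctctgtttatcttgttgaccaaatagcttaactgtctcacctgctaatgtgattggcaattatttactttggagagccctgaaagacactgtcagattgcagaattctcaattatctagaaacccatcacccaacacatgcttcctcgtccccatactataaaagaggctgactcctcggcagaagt
The match begins 215 bases before the start. CTCAAG on either strand was held by 8.79% of all matched promoters, 7.46% of those of shared rises and 7.19% of those of shared falls. The match is a description and not a site.

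Of 19 airway secretory defence genes, 8 changed lower and none higher, and 4 were shared falls (21.1%, where 1.68% of all rows were). Their median log2 difference was -0.998. Besides BPIFA1 and BPIFB1 the shared falls were PIGR, which carries antibodies across the epithelium (-3.05 ± 0.53; limma adjusted p = 0.0034), and the protease inhibitor SLPI (-1.89 ± 0.39; limma adjusted p = 0.0075). The SLPI difference was -1.11 in PR1, which did not pass on its own, and -2.66 in PR2. S100P, a calcium-binding protein of secretory epithelium, changed by -3.92 ± 0.26 in the pooled comparison (limma adjusted p = 9.5e-06). It was not shared, since PR1 differed by -0.91 and PR2 by -6.93. With the derivatives as 1 group, 3 of the list were called lower in place of 8. Of 20 alveolar and lung lineage genes, 8 changed lower and 4 higher, and 2 were shared falls (10%). With the derivatives as 1 group, 1 changed lower, 1 higher and 1 was a shared fall.

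**Figure D3:**
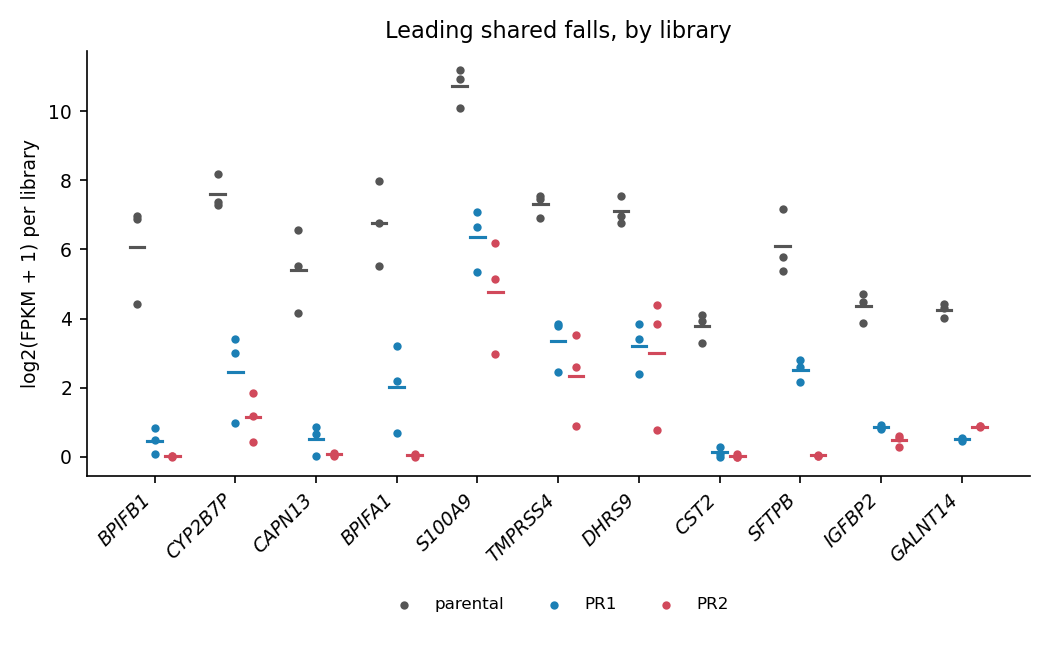
Log2(FPKM + 1) in each library for leading shared falls, ordered by the smaller of the 2 derivatives' differences, with 1 point per library, colours for parental, PR1 and PR2 cells and a short bar at each group mean (n = 3). All 6 derivative points lie below the 3 parental points for each gene shown.

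S100A9 and S100A8 form calprotectin, a calcium- and metal-binding protein pair made by neutrophils and by some epithelia. S100A9 was measured at 1093, 2344 and 1944 FPKM in parental cells, 40.02, 100.4 and 134 FPKM in PR1 and 6.82, 34.5 and 71.8 FPKM in PR2, a log2 difference of -5.17 ± 0.63 (limma adjusted p = 0.00041). S100A8 was listed at 9.41, 13.7 and 2.63 FPKM in parental cells, 0.231, 0 and 0.129 FPKM in PR1 and 0, 0.142 and 0.136 FPKM in PR2 and changed by -2.90 ± 0.35 (limma adjusted p = 0.00041), a difference of -3.49 without parental C. For both, each derivative library lay below all parental ones. Of 13 S100 genes tested none was a shared rise, where 1.49% of all rows were. CD14, the blood cell marker at 1 FPKM or more, fell as well (-1.70 ± 0.22; limma adjusted p = 0.00067), with 6.17 ± 2.79 FPKM in parental cells, 1.34 ± 0.313 in PR1 and 0.876 ± 0.184 in PR2 (SD, n = 3 per group). Its part in the calprotectin values was not tested.

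Part of the retinoid genes fell. Retinol is carried into cells by STRA6 and oxidised by dehydrogenases such as RDH10 and DHRS9, while DHRS3 works in the reverse direction. Among 26 aldehyde dehydrogenase and retinoid genes, 7 were shared falls (26.9%) and 1 a shared rise (3.85%), and 10 changed lower and 7 higher, for a median of -0.12. STRA6 stood at 8.28, 19.3 and 21.8 FPKM in parental cells, 0.884, 2.40 and 1.39 FPKM in PR1 and 0.0957, 1.02 and 0.582 FPKM in PR2, a log2 difference of -3.06 ± 0.31 (limma adjusted p = 0.00014). DHRS9 was measured at 126, 187 and 108 FPKM in parental cells, 4.21, 9.71 and 13.5 FPKM in PR1 and 0.695, 13.5 and 19.9 FPKM in PR2, a log2 difference of -3.99 ± 0.68 (limma adjusted p = 0.0030). For both genes all derivative libraries lay below the parental ones.

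RDH10 changed by -1.35 in PR1 and by -3.29 in PR2, and the folate enzyme gene ALDH1L1 by -3.33 and -1.71, so RDH10 was lower in PR2 and ALDH1L1 in PR1. DHRS3 changed by -2.72 ± 0.70 (limma adjusted p = 0.021), a call that was lost without parental B or without parental C (adjusted p = 0.093 and 0.080). DHRS3 did not pass in PR1 alone (limma adjusted p = 0.18). ALDH3B2 changed by -2.90 ± 0.18, whereas its close relative ALDH3B1 rose by 1.51 ± 0.26 (limma adjusted p = 6.9e-06 and 0.0031). The members of the list called higher numbered 3 to 4 when a parental library was left out, in place of 7.

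Of 13 keratins, the filament proteins of epithelial cells, 4 were shared falls (30.8%) and none a shared rise, and the median was -0.75. KRT23 was measured at 4.10, 5.81 and 5.19 FPKM in parental cells, 0.0343, 0.0747 and 0.0288 FPKM in PR1 and 0.0603, 0.108 and 0.0708 FPKM in PR2, a log2 difference of -2.49 ± 0.12 (limma adjusted p = 9.1e-07). KRT15 and KRT20 changed by -1.39 ± 0.21 and -2.17 ± 0.31, and KRT6A by -3.27 ± 0.54, a value that was -2.46 without parental A (limma adjusted p = 0.0015, 0.0011 and 0.0024). Among 28 NRF2 targets and aldo-keto reductases, 7 changed lower and 1 higher, and AKR1C1, AKR1C2, AKR1C3 and GPX2 were shared falls (14.3%). The AKR1C genes encode enzymes that reduce steroids and other carbonyls, and their sequences are so alike that reads may be split between them. AKR1C2 was measured at 27.6, 28.7 and 29.8 FPKM in parental cells, 2.36, 4.35 and 2.12 FPKM in PR1 and 2.28, 1.15 and 0.989 FPKM in PR2, a log2 difference of -3.29 ± 0.21 (limma adjusted p = 6.9e-06). AKR1C3 and AKR1C1 changed by -1.96 ± 0.22 and -1.36 ± 0.26 (limma adjusted p = 0.00025 and 0.0053).

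Several other secreted and surface genes fell in both derivatives. IGFBP2, which binds insulin-like growth factors, was measured at 13.7, 21.2 and 25.4 FPKM in parental cells, 0.751, 0.900 and 0.761 FPKM in PR1 and 0.525, 0.469 and 0.213 FPKM in PR2, a log2 difference of -3.69 ± 0.18 (limma adjusted p = 1.1e-06). GALNT14, an enzyme that starts O-linked glycosylation, stood at 15.1, 20.6 and 18.8 FPKM in parental cells, 0.437, 0.464 and 0.373 FPKM in PR1 and 0.838, 0.850 and 0.806 FPKM in PR2, a log2 difference of -3.56 ± 0.12 (limma adjusted p = 3.8e-07). Both were low in each derivative, GALNT14 with little spread between libraries and IGFBP2 with a wider range in PR2 (0.213 to 0.525 FPKM). The calpain gene CAPN13 changed by -5.12 ± 0.41 (-5.74 without parental A), the membrane serine protease TMPRSS4 by -4.46 ± 0.51 and the cystatin CST2 by -3.70 ± 0.17 (limma adjusted p = 3.7e-05, 0.00029 and 9.1e-07). Of 44 proteases and inhibitors, 10 changed higher (22.7%) and 9 lower (20.5%), while 6 were shared falls (13.6%) and 1, SERPINB5, a shared rise (2.27%). SERPINB5 rose by 1.13 ± 0.25 (limma adjusted p = 0.010) and lost its call without parental B or parental C (adjusted p = 0.057 and 0.056). The combined locus KLK11,KLK12, which holds 2 kallikrein proteases whose values cannot be split, was measured at 29.5, 58.1 and 28.5 FPKM in parental cells, 0, 0.113 and 0.105 FPKM in PR1 and 0.0462, 0.339 and 0.166 FPKM in PR2 and changed by -5.06 ± 0.21 (limma adjusted p = 5.1e-07). KLK13, another kallikrein, changed by -2.82 ± 0.32 (limma adjusted p = 0.00030).

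Immune and signalling genes gave mixed counts. CD74, which encodes the invariant chain that accompanies MHC class II molecules, was measured at 208, 284 and 253 FPKM in parental cells, 2.83, 9.88 and 8.96 FPKM in PR1 and 40.9, 67.7 and 48.9 FPKM in PR2, a log2 difference of -3.64 ± 0.31 (limma adjusted p = 5.0e-05). It fell further in PR1 than in PR2. The combined locus HLA-DRB1,HLA-DRB5 changed by -3.97 ± 0.26 (limma adjusted p = 8.4e-06), and its member genes are near-identical. Of 9 tested genes of MHC class II and its partners, 4 changed lower (44.4%) and 2 higher (22.2%), with 11 more below the filter. CD74 was the shared fall of that list, whose median was -0.38. Without parental B or parental C, 1 of its members changed lower and 2 higher. IDO1, an enzyme of tryptophan breakdown induced by interferon, changed by -2.61 ± 0.27 (limma adjusted p = 0.00016). Of 25 interferon response genes none was shared, where 3.17% of all rows were. Of 21 chemokines and cytokines, 6 changed higher and 6 lower (28.6% each). In that list 3 were shared falls (CXCL17, CXCL8 and CCL20) and 1 a shared rise, IL18 (1.19 ± 0.24; limma adjusted p = 0.0071). Without parental C, 1 of the chemokines and cytokines was a shared fall. Among 12 complement genes C4BPB and C3 were shared falls. C3 changed by -1.73 ± 0.53 (limma adjusted p = 0.044), and that call was lost when any parental or any PR1 library was left out (adjusted p = 0.052 to 0.14). C3 did not pass in PR1 alone (limma adjusted p = 0.13).

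Of 31 NOTCH and WNT genes, 3 were shared falls (9.68%) and 1 a shared rise (3.23%). More of the list changed higher, 8 (25.8%), than lower, 5 (16.1%), and its median was 0.28. NOTCH3, a NOTCH receptor, was measured at 13.9, 12.7 and 11.8 FPKM in parental cells, 1.34, 1.89 and 1.57 FPKM in PR1 and 5.10, 5.89 and 4.29 FPKM in PR2, a log2 difference of -1.80 ± 0.13 (limma adjusted p = 2.0e-05). The NOTCH targets NRARP and HES1 changed by -1.31 ± 0.11 and -1.75 ± 0.40 (limma adjusted p = 5.1e-05 and 0.013), and the HES1 call was lost without parental C (adjusted p = 0.061), without the 3 A libraries (0.061) and with the derivatives as 1 group (0.082). HES1 did not pass in PR1 alone (limma adjusted p = 0.18). DKK1, a secreted WNT antagonist, rose by 2.76 ± 0.44 (limma adjusted p = 0.0020). In cholesterol metabolism 2 of 23 genes were shared rises (8.70%), among them LSS, lanosterol synthase, at 1.09 ± 0.23 (limma adjusted p = 0.0092). No shared change was found among 38 cell cycle genes, 28 oxidative phosphorylation genes, 17 genes of the BCL2 family, 7 MHC class I genes or 30 epithelial adhesion genes. Over all rows the share was 3.17%, so finding none in lists of this size differs little from it. Of the cell cycle genes 1 changed higher and 1 lower, as in the BCL2 family, and 1 oxidative phosphorylation gene changed lower. The 3 changed MHC class I genes were higher (42.9%). Epithelial adhesion genes mostly changed upward, 10 higher (33.3%) and 2 lower (6.67%), where 11.0% and 8.96% of all rows did. Without parental B or parental C, 5 and 4 epithelial adhesion genes were called. Of 30 stress response genes (unfolded proteins, amino acid shortage), 2 changed lower (6.67%, where 8.96% of all rows did) and none was shared, with a median of -0.31. Those counts hinged on the A libraries. Without parental A, 9 changed lower and 3 were shared falls (median -0.74), and without all 3 A libraries 16 changed lower and 8 were shared falls (median -0.75).

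**Figure D4:**
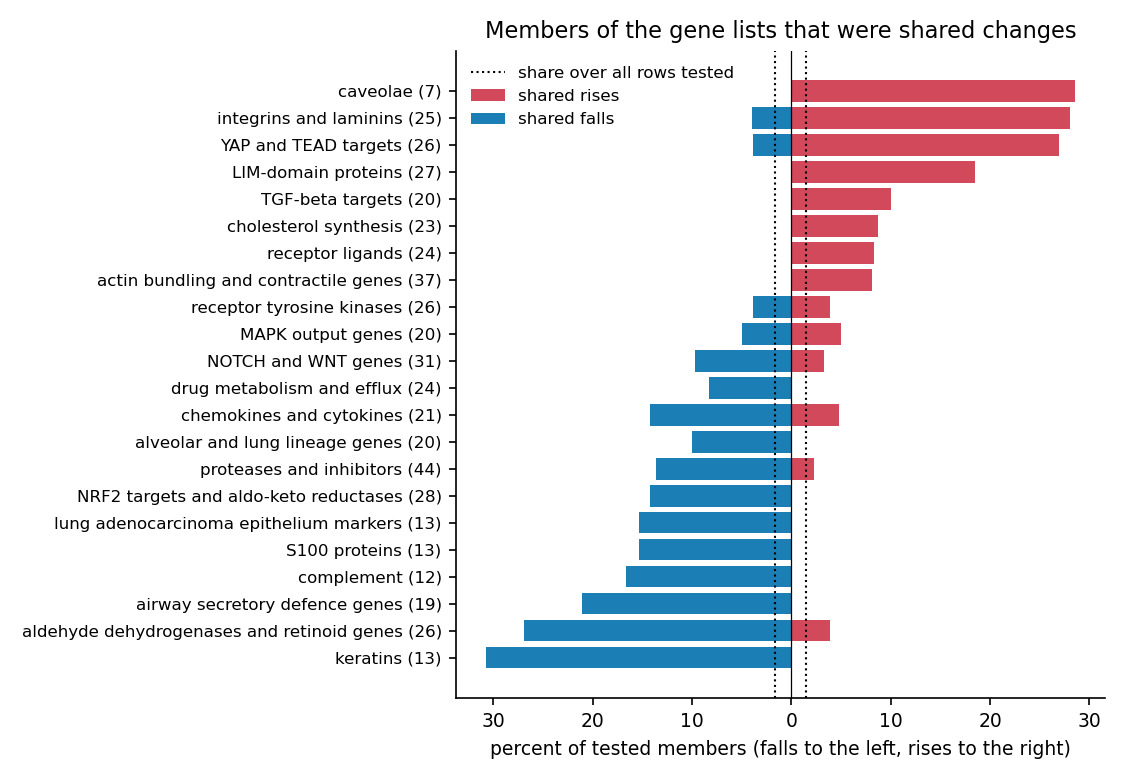
Percent of tested members that were shared rises (red, to the right) or shared falls (blue, to the left) for the lists with more than 1 shared change, with the number of tested members after each name. Dotted lines mark the shares over all 12011 rows, 1.49% for rises and 1.68% for falls. The lists were chosen with earlier results of these data known, so the shares are a description. Caveolae (28.6%), integrins and laminins (28%) and YAP and TEAD targets (26.9%) have the highest shares of rises, and keratins (30.8%) and aldehyde dehydrogenases and retinoid genes (26.9%) of falls.

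How evenly the derivatives moved was tested by the difference between PR2 and PR1. It does not use the parental means, but the spread of the parental libraries enters its error. It passed the threshold for 68 of the 381 shared changes (17.8%), against 19.9% of all rows tested. Among 30 unequal rises 26 were larger in PR2 and 4 in PR1, and among 38 unequal falls 29 were larger in PR2 and 9 in PR1. How often PR2 moved further over all rows was not counted, so this direction may not be particular to shared changes. The most unequal were 4 falls of epithelial genes. CEACAM5, the carcinoembryonic antigen, was measured at 225, 223 and 121 FPKM in parental cells, 39.8, 81.2 and 79.5 FPKM in PR1 and 1.29, 1.58 and 2.64 FPKM in PR2, and its PR2 minus PR1 difference was -4.54 ± 0.33 on the log2 scale (limma adjusted p = 2.3e-05). CXCL17, a mucosal chemokine, stood at 359, 642 and 378 FPKM in parental cells, 82.7, 308 and 205 FPKM in PR1 and 0.467, 12.2 and 15.5 FPKM in PR2, a PR2 minus PR1 difference of -4.68 ± 0.81 (limma adjusted p = 0.0034). PADI1, a peptidylarginine deiminase, and GCNT3, a mucin glycosyltransferase, differed between the derivatives by -3.53 ± 0.47 and -3.15 ± 0.32 (limma adjusted p = 0.00081 and 0.00016). CXCL17 and PADI1 did not pass in PR1 alone against parental cells (limma adjusted p = 0.31 and 0.18). These 4 genes were chosen for that inequality, and with the derivatives as 1 group none of them was called against parental cells (limma adjusted p = 0.073 to 0.14).

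Other shared changes, chosen for that closeness, were almost the same size in both derivatives. SORBS3, the adhesion protein vinexin, stood at 3.96 ± 1.17 FPKM in parental cells, 16.7 ± 3.96 in PR1 and 16.6 ± 4.09 in PR2 (SD, n = 3 per group), and LSS and BMP2K, a kinase, differed from parental cells by 1.09 in PR1 and 1.09 in PR2 and by 1.05 in PR1 and 1.05 in PR2. SOX21, a transcription factor, was measured at 8.03, 11.4 and 7.82 FPKM in parental cells and was listed at 0 in all 6 derivative libraries, where such zeros can also be values that the quantification did not resolve, as was the adaptor gene APBA2, which was at 2.23 ± 0.422 FPKM (SD, n = 3) in parental cells. NLRP2, an innate immune gene, was listed at 0 in 5 of 6 derivative libraries and was 7.05 ± 1.32 FPKM (SD, n = 3) in parental cells. Of the 381 shared changes, 37 had a 0 in at least 1 library. PR1 and PR2 share the same parental libraries, so the closeness of their differences is in part set by them.

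**Figure D5:**
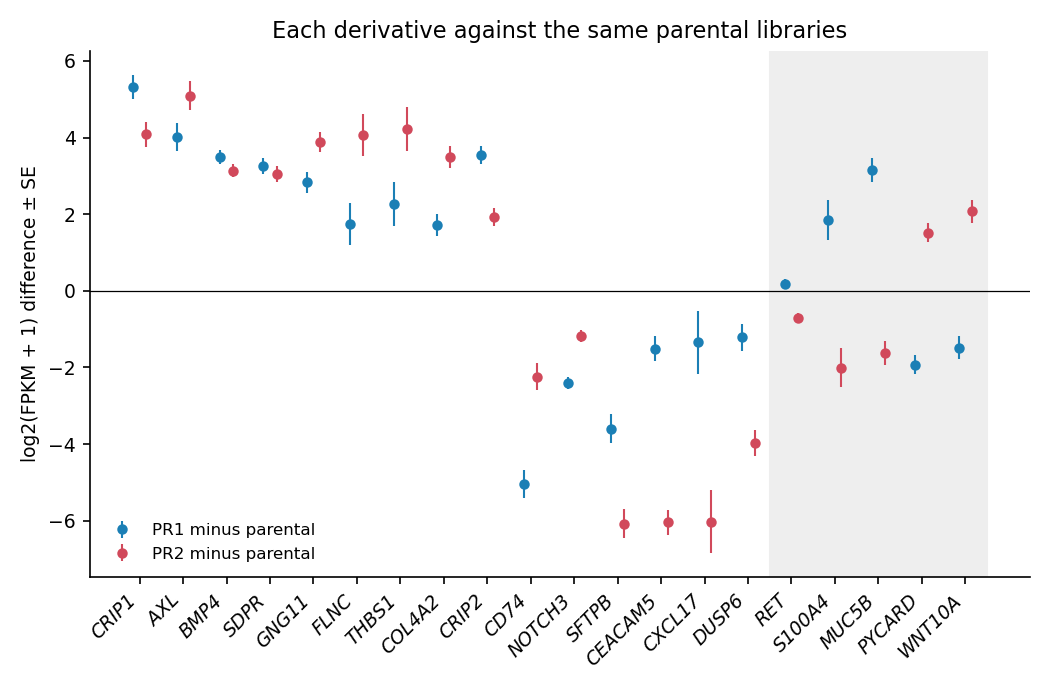
Log2(FPKM + 1) difference of PR1 (blue) and of PR2 (red) from the same 3 parental libraries for 20 genes, with bars for the standard error. The 15 genes on the white ground are shared changes. On the grey ground RET was not called in the pooled comparison, and the other 4 were chosen because the derivatives moved apart.

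The pooled mean hides genes that moved in opposite directions. In 24 rows (0.200%) the 3 libraries of each derivative lay beyond the parental ones on opposite sides, by 2-fold or more, with PR2 the higher in 17 and PR1 in 7. At a pseudocount of 0.1 in place of 1, 73 rows met this condition. The pooled difference was called for 3 of the 24. S100A4, a calcium-binding protein linked to cell motility, was measured at 229, 305 and 76.3 FPKM in parental cells, 709.9, 898 and 399 FPKM in PR1 and 29.5, 71.6 and 37 FPKM in PR2, and MUC5B, an airway mucin, at 1.09, 4.10 and 2.07 FPKM in parental cells, 20.9, 25.2 and 38.7 FPKM in PR1 and 0.0104, 0.0437 and 0.0561 FPKM in PR2. Both were high in PR1 and low in PR2. PYCARD, the inflammasome adaptor, was measured at 3.19, 4.36 and 2.01 FPKM in parental cells, 0.102, 0 and 0.115 FPKM in PR1 and 7.33, 14.5 and 11.3 FPKM in PR2, and the ligand gene WNT10A at 10.6, 6.19 and 5.93 FPKM in parental cells, 2.53, 2.92 and 0.895 FPKM in PR1 and 33.4, 42.6 and 27.5 FPKM in PR2, with the opposite order. Their pooled log2 differences were -0.08 ± 0.45, 0.76 ± 0.27, -0.21 ± 0.22 and 0.29 ± 0.26, none of which passed (limma adjusted p = 0.93, 0.072, 0.56 and 0.48). PYCARD passed at a pseudocount of 0.1 (limma adjusted p = 0.027) and MUC5B without parental B (limma adjusted p = 0.019). The 4 genes were selected for this pattern, so the values are a description.

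Some shared changes sat beside each other in the genome. In the RefSeq gene order (GRCh38.p14), 39 of 190 placed shared falls (20.5%) had a shared fall as the next tested gene on either side, where 3.29% of all 11292 placed rows had one. For the rises it was 19 of 176 (10.8%), against 3.06% of all rows. Adjacent falls included BPIFA1 with BPIFB1, S100A9 with S100A8, AKR1C1 with AKR1C2 and AKR1C3, CAPN13 with GALNT14, KRT20 with KRT23 and SERPINA1 with SERPINA3. Adjacent rises included CRIP2 with CRIP1 and SORBS3 with PDLIM2. GUCY1A3 and GUCY1B3, whose products form the soluble guanylate cyclase that nitric oxide activates, are neighbours too and changed by -2.20 ± 0.14 and -2.37 ± 0.13 (limma adjusted p = 6.5e-06 and 2.1e-06). SOX21-AS1, the antisense neighbour of SOX21, changed by -2.87 ± 0.10 (limma adjusted p = 3.8e-07), but whether counting used the strand is not given in the sources used here, so reads of SOX21 and SOX21-AS1 cannot be told apart. Several neighbours are relatives that may share reads, and how much that adds to these counts was not tested.

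Promoter letters and base composition are given as a description. The ETS letters CCGGAAG were held by 16.6% of all matched promoters, 4.48% of those of shared rises and 7.19% of those of shared falls. The AP-1 letters TGANTCA were held by 3.94%, 5.97% and 9.35%, and the E-box letters CAGGTG by 15.7%, 22.4% and 20.1%. For the antioxidant element, TGACNNNGC, the shares were 12%, 6.72% and 10.1%, and for the forkhead letters TGTTTAC 1.86%, 1.49% and 3.60%. All were searched on both strands and matches may overlap. Median GC content was 65.2% over all matched promoters, 67.0% for shared rises and 61.6% for shared falls, and 9.53%, 14.2% and 22.3% of them lay below 50% GC. The motif shares were not adjusted for base composition.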

How the data were processed

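RNA libraries from parental LC-2/ad cells and the derivatives PR1 and PR2 (3 per group) were analysed. The authors deposited 1 table of FPKM values. The unit is inferred from the values, since the header names none. Per the submitters' processing notes, GRCh37 and hg19 were the builds, and the tools were Cuffdiff 2.2.1, Cufflinks 2.2.1 and TopHat2 2.0.14. The annotation is not given in the sources used here, nor is the read number of each library. Depth relative to parental A, from single-fragment steps of low values, was 0.746 to 1.01. Of 24069 rows, 704 combine several genes and 5378 are 0 throughout, and an exact 0 can be a failed estimate.

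FPKM was taken as log2(FPKM + 1), which understates changes of low genes, and rows at 1 FPKM or more in 3 libraries were tested (12011, 561 combined). Limma 3.58.1 in R 4.3.3 fitted 1 mean per group with an intensity trend, and two-sided p-values were adjusted by Benjamini-Hochberg over all rows. The contrast was the mean of the PR1 and PR2 means minus the parental mean. The fit was tested on simulated data. Errors are SDs of FPKM (n = 3) and standard errors of log2 differences.

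Genes to name were the 12 leading rises and falls by the smaller derivative difference at 5 FPKM or more, the most and least even, the most opposite, up to 3 shared members per list and direction, and a set around AXL and RET. Other genes were added after their values were seen, and some of the selected genes are not reported here. Of 1069 entries in 38 gene lists, 800 were tested, 41 lay in combined loci, 2 had no row and 226 were below the filter. Members, lists and this comparison were chosen with earlier results of these data known. The letters A, B and C were not taken as pairs, and a fit with the letter as a block was an alternative. RefSeq (GRCh38.p14) served for gene order and promoters, with 9087 of 11450 single-gene rows matched by symbol. Alternatives changed the pseudocount, filter, scaling, trend, block, grouping and libraries used.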

Additional observations from a re-analysis of the deposited data

Results flagged for a closer look

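The derivatives differed from each other, by limma's test of PR2 minus PR1, in 38 of the named genes, and the values below are that log2 difference. Among the shared rises it was -1.24 for CRIP1, -1.62 for CRIP2, 1.06 for GNG11, 1.11 for EDIL3, 1.27 for EPB41L2, 1.52 for GAS6, 1.77 for COL4A2, 2.32 for FLNC, 1.95 for THBS1 and 1.13 for CRIM1. The 2 CRIP genes were higher in PR1 and the other 8 higher in PR2. Among the shared falls it was -2.48 for SFTPB, -4.68 for CXCL17, -4.54 for CEACAM5, -3.53 for PADI1, -3.15 for GCNT3, -2.76 for DUSP6, -1.42 for CXCL8, -0.52 for NRARP, -1.94 for RDH10, -1.55 for SLPI and -1.04 for ECE2. In those genes PR2 was the lower. It was 2.81 for CD74, 1.03 for FABP6, 1.22 for NOTCH3 and 1.62 for ALDH1L1, in which PR1 was the lower.

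Genes that were not shared changes differed as well. The difference was -0.89 for RET, -3.86 for S100A4, -4.77 for MUC5B, 3.44 for PYCARD, 3.56 for WNT10A and -6.02 for S100P. It was 1.02 for ITGB4, -2.83 for CTGF, -2.92 for VIM, 1.86 for FN1, -2.41 for SPRY4, -2.56 for ETV4 and -1.64 for F2R. S100P, CXCL17, MUC5B and CEACAM5 differed most among the named genes, and all 4 were lower in PR2.

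In 8 genes 1 of the 6 derivative libraries stood far from the others, by the gap between it and the next relative to the whole range on the log2(FPKM + 1) scale. These were PR1 C for CST2 (0.217 FPKM) and KRT20 (0.167), PR1 B for NLRP2 (0.00957) and GSTA1 (0.614), PR2 A for DHRS3 (2.19), GUCY1A3 (0.0434) and SOX21-AS1 (0.00808), and PR2 B for GUCY1B3 (0.0591). DHRS3 was far below the other derivative libraries in PR2 A, and the other 7 values were far above theirs. The limit used would mark about 1 in 20 groups of 6 values from a single normal population. These libraries come from 2 lines and many values lie near 0, so that rate need not hold here. The values except that of DHRS3 are under 1 FPKM.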

How the results depend on the processing

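With a pseudocount of 0.1 the shared changes were 577, the shared rises 311 and the opposite changes 73, and 380 of the 381 were still shared. Without a filter 1682 rows changed lower. A filter at 5 FPKM, which tests fewer rows, left 1506 changed (856 higher, 650 lower) and 121 shared falls. With the derivatives as 1 group, where their difference adds to the error, 1040 changed (559 higher, 481 lower), but 365 of the 381 shared changes were still called. With the letter as a replicate block 3641 changed, 2053 of them higher, and the shared changes were 382. CTGF and MUC5B, not called without the block, passed under that block (limma adjusted p = 0.049 and 0.034). The deviations of same-letter libraries from their group means correlated with parental ones at 0.311, 0.477 and 0.163 (PR1) and 0.296, 0.417 and 0.014 (PR2). The pairing needed more than 0.1 in every pair, which PR2 C did not reach, and the labels do not say what a letter marks. In 17 of 18 comparisons of a library with another group it correlated best with its own letter, a hint from the data and not from the design. Without the 3 A libraries 4433 rows lay on the same side and 497 were shared, 346 of them among the 381. Leaving out 1 library gave 1326 to 2407 changed rows (690 to 1341 higher, 636 to 1074 lower), 1955 to 3310 on the same side, 336 to 544 shared (152 to 261 higher, 184 to 283 lower) and 21 to 32 opposite. The fewest changed rows came without parental B (1326) and C (1516), and the most rows on the same side without parental A (3310). The cause was not tested.

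Of the values of the genes selected for naming under all alternatives, 2175 kept direction and call, 42 lost the call, 4 gained it and 15 reversed. The reversals were in 4 genes that were not called in the pooled comparison. MUC5B was -0.20 at a pseudocount of 0.1. S100A4 was 0.014 with quantile normalization and 0.21 without the A libraries, and -0.67 to 0.32 when 1 library was left out, above 0 without parental A, parental B, PR1 C or PR2 A. CCDC6 was 0.11 without the A libraries and -0.24 to 0.068 when 1 library was left out, above 0 without parental A or C. ITGB4 was 0.052 with quantile normalization and 0.22 without the A libraries, and -0.12 to 0.19 when 1 library was left out, above 0 without parental A, PR1 C or PR2 A. FPKM keeps no absolute depth, so no counting interval was given.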

Other observations

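Genes of the X chromosome that are known to stay active on both copies in cells with 2 X chromosomes were counted among the changes. The list of 27 such genes was drawn up after the shared changes had been seen, so its counts are a description without a test. Of 25 tested members, 14 changed lower and 1 higher, where 8.96% of all rows changed lower, and their median log2 difference was -0.68, against 0.03 over all rows. Of these, 5 were shared falls. The ribosomal protein gene RPS4X was measured at 3479, 4462 and 4899 FPKM in parental cells, 1936, 2202 and 1559 FPKM in PR1 and 1132, 1542 and 1476 FPKM in PR2, a log2 difference of -1.40 ± 0.18 (limma adjusted p = 0.00065). KDM5C, a histone demethylase, stood at 33.8, 35.6 and 36.3 FPKM in parental cells, 12.9, 14.5 and 15.4 FPKM in PR1 and 14.2, 13.8 and 14.2 FPKM in PR2 and differed by -1.26 ± 0.11 (limma adjusted p = 5.5e-05). The translation factor gene EIF2S3 and the genes HDHD1 and PNPLA4 differed by -1.11 ± 0.14, -1.24 ± 0.11 and -1.18 ± 0.17 (limma adjusted p = 0.00051, 7.5e-05 and 0.0012). In KDM5C, EIF2S3 and HDHD1 the PR1 and PR2 means lay close together, at 14.3 and 14.1 FPKM for KDM5C, 68.8 and 66.6 FPKM for EIF2S3 and 10.8 and 9.83 FPKM for HDHD1, where the parental means were 35.3, 147 and 25.7 FPKM. The member that rose was KAL1, an extracellular matrix gene, at 0.785 ± 0.480 FPKM in parental cells, 5.45 ± 0.508 in PR1 and 5.91 ± 0.371 in PR2 (SD, n = 3 per group). With median scaling or quantile normalization 17 members changed lower, without the 3 A libraries 14, and with the derivatives as 1 group 13.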
